A study of Mus musculus with 70 samples.

Results

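The endothelial genes of the mouse lung were followed through 13 chemical exposures with 10 genes: Cdh5, Pecam1, Kdr, Tek, Tie1, Dll4, Flt1, Eng, Emcn and Npr1. The genes were chosen by name. Both they and the gene lists used below were chosen with earlier results of these data known. A probe set is a group of short DNA probes for 1 transcript, and of the probe sets of a gene the brightest on average over the 70 arrays stood for it. They are 10 of 18193 genes that had a probe set with a single gene symbol, and all 10 passed the filter on dim probe sets (a mean above 4.25 on the log2 scale), as did 14593 genes in all.

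Endothelial cells line the vessels of the lung, and in the alveolar wall they form the capillary bed across which gas is exchanged. Their junctions are held by VE-cadherin (Cdh5) and PECAM-1 (Pecam1). Growth and stability are governed by receptors for vascular endothelial growth factor (Kdr and Flt1), by the angiopoietin receptor Tek with its partner Tie1, by the Notch ligand Dll4, and by endoglin (Eng), a co-receptor for BMP9 that works with the receptor ALK1. Endomucin (Emcn) is a sialomucin of capillary and venous endothelium, and Npr1 is the guanylyl cyclase receptor for atrial natriuretic peptide.

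Right lung lobes came from 70 female B6C3F1 mice, a cross of C57BL/6 and C3H strains, exposed for 13 weeks from 5 weeks of age and labelled as 18 weeks old. One Affymetrix mouse genome array was run per animal. Animal identifiers begin with 1 or 2, called set 1 and set 2 here, and what that number means is not stated in the labels. In set 1, with 3 mice per group, feed given on 7 days a week carried 1,5-naphthalenediamine at 2000 ppm, N-(1-naphthyl)ethylenediamine dihydrochloride at 2000 ppm or pentachloronitrobenzene at 8187 ppm. Corn oil gavage in set 1, at 5 ml/kg on 5 days a week, carried 2,3-benzofuran at 240 mg/kg. In set 2, with 4 mice per treated group, feed carried 2,2-bis(bromomethyl)-1,3-propanediol at 1250 ppm, 4-nitroanthranilic acid at 10000 ppm, malathion at 16000 ppm or diazinon at 200 ppm. Corn oil gavage in set 2 carried coumarin at 200 mg/kg, 1,2-dibromoethane at 62 mg/kg or benzene at 100 mg/kg, and mice gavaged with water received N-methylolacrylamide (50 mg/kg) or 2-chloromethylpyridine hydrochloride (250 mg/kg). Control mice received the vehicle alone: 3 on feed and 3 on corn oil in set 1, and 4 on feed, 8 on corn oil and 4 on water in set 2. The labels class 1,5-naphthalenediamine, 2,3-benzofuran, coumarin, 1,2-dibromoethane, benzene, N-methylolacrylamide and 2,2-bis(bromomethyl)-1,3-propanediol as positive for lung tumours in mice, and the other 6 chemicals as negative.

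All values below are log2 probe set signals, and a difference of 1 is a doubling. Array medians lay between 5.41 and 5.52. No probe-level depth exists for arrays, so the number of arrays limits the precision. The difference between the 3' and 5' control probe sets of Actb and Gapdh, which grows as RNA breaks down, was 0.989 in 1,2-dibromoethane animal 2-56 and 0.523 in 2,3-benzofuran animal 1-10, and at most 0.404 in the other arrays. Control groups also differed from each other, as given below. Of the 30 genes on a list of other pan-endothelial markers, 29 were on the array and all 29 passed the filter. The same held for 12 of 12 alveolar type I and 11 of 12 alveolar type II markers.

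The genes map to these places in GRCm38.p6, the assembly of the RefSeq gene table: Cdh5 to chr8:104101613-104144504, Pecam1 to chr11:106654213-106715281, Kdr to chr5:75932827-75979072, Flt1 to chr5:147561604-147726438 and Tek to chr4:94739086-94874976. Tie1 lies at chr4:118471191-118489849, Dll4 at chr2:119325784-119335666, Eng at chr2:32646595-32682669, Emcn at chr3:137341062-137431069 and Npr1 at chr3:90450591-90465928. RefSeq promoter windows of this build were at hand for 8 genes, and not for Cdh5 and Pecam1. The bases just upstream of the gene start are shown for Eng and for Emcn, the pair that ran most clearly opposite from animal to animal. Windows run 5' to 3' along the gene's strand, Eng at chr2:32646345-32646594 on the plus strand and Emcn at chr3:137340828-137341061 on the plus strand, and capitals mark the ETS motifs searched for (CAGGAAG and CCGGAAG, on both strands), which ETS family factors such as ERG recognise in endothelial genes.
Eng: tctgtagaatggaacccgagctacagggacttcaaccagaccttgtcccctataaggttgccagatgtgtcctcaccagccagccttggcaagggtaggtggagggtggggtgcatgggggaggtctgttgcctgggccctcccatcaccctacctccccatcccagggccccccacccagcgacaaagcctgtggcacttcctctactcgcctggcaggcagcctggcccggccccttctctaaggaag
Emcn: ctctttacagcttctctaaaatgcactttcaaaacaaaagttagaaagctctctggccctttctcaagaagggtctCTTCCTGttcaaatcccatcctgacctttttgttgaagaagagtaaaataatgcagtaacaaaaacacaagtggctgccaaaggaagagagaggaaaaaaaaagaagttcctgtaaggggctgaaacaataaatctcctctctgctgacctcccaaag
The Emcn sequence is shown up to the annotated gene start (234 bases). The search took the first 250 bases of each RefSeq window, which for some genes reach past the annotated start. In these 250 bases either ETS motif was found in 1 of the 8 genes, Emcn, against 17% of 32851 promoters. The SOX motif AACAAT was found in 2 of the 8 genes, Emcn and Tek, against 9.42% of promoters. No match was found among the 8 for AGATAA, read by GATA factors (9.99% of promoters), for the forkhead motif GTAAACA (3.17%) or for the hypoxia motif ACGTG (16.6%). The motifs were searched on both strands, and the ETS and SOX matches of Emcn do not overlap. A match is a run of letters and not a measured binding site.

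Among the 130 comparisons of a gene with a chemical, 7 passed an adjusted p under 0.05 in the limma fit, in which p-values were adjusted by Benjamini-Hochberg over all genes tested. Cdh5, Tie1, Eng and Npr1 fell with coumarin, and Npr1 fell with 1,2-dibromoethane. Emcn and Tek rose with N-methylolacrylamide. Of all genes tested, 4.09% passed with coumarin, 4.03% with 1,2-dibromoethane and 17.9% with N-methylolacrylamide. In the other 10 chemicals none of the 10 genes passed, where 0% to 4.07% of all genes did. Such changes are measured in whole lobes, where fewer endothelial cells and less RNA per endothelial cell cannot be told apart.

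**Figure D1:**
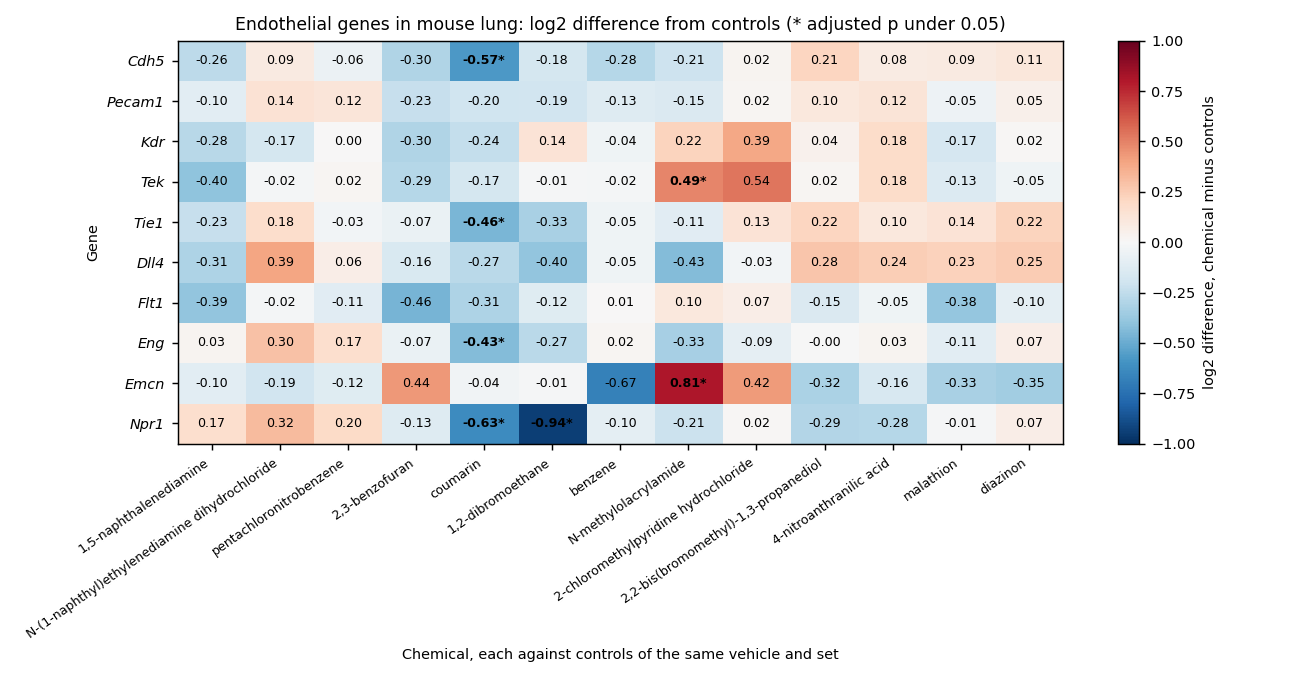
Log2 difference from controls of the same vehicle and set for each of the 10 genes (rows) and 13 chemicals (columns), with 3 or 4 treated and 3 to 8 control mice; asterisks mark an adjusted p under 0.05 in the limma fit. Only the coumarin column is below 0 for all 10 genes, and the strongest single values are Npr1 with 1,2-dibromoethane (-0.94) and Emcn with N-methylolacrylamide (0.81).

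Coumarin lowered 4 of the 10 endothelial genes, where 1.18% of all genes tested were called lower and 4.09% in either direction. All 10 lay below 0, with a median of -0.29 against -0.0057 over all genes. Cdh5, which carries the adhesion of the endothelial junction, stood in the 4 coumarin mice at 8.99, 9.37, 9.40 and 9.62, against a lowest value of 9.84, a median of 9.92 and a highest of 9.99 in the 8 corn oil controls. The groups did not overlap, and the controls spanned a narrow range. The difference was -0.57 ± 0.11 (standard error of the limma fit; adjusted p = 0.000636), which leaves 67.2% of the control signal. A second, dimmer Cdh5 probe set gave -0.99 ± 0.23.

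Tie1, the receptor that heightens Tek signalling, was measured with coumarin at 9.02, 9.23, 9.49 and 9.50. Corn oil controls lay between 9.63 and 9.95 with a median of 9.75, so the groups were again apart. The change was -0.46 ± 0.11 (limma adjusted p = 0.00753). Cdh5 and Tie1 were the 2 of the 10 genes with every coumarin animal below every control, as were 0.754% of all genes. Tie1 was not called without coumarin animal 2-80 (-0.36, adjusted p = 0.078).

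Eng, the BMP9 co-receptor, read 10.70, 10.85, 11.09 and 11.17 with coumarin. The lowest of the 8 controls was 11.16, their median 11.38 and the highest 11.56, an overlap of a single animal. The change was -0.43 ± 0.12 (limma adjusted p = 0.0217). This call was lost without coumarin animal 2-76 (adjusted p = 0.0674) or 2-80 (adjusted p = 0.121). The dimmer Eng probe set gave -0.39 ± 0.13 and was not called (adjusted p = 0.0932 over all probe sets, against 0.034 for the brighter one).

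Npr1, through which natriuretic peptide raises cyclic GMP, was at 5.91, 6.06, 6.35 and 6.38 with coumarin, against 6.29 to 7.31 in the controls (median 6.77). The change was -0.63 ± 0.15 (limma adjusted p = 0.00823), and the groups overlapped at the controls' lower end. The Npr1 controls were themselves uneven. The 4 with animal numbers 93 to 99 averaged 7.12, the 2 numbered 59 and 60 averaged 6.36 and the 2 numbered 132 and 134 averaged 6.60. Against the 4 controls outside 93 to 99 the coumarin change was -0.31 and was not called (adjusted p = 0.312), and against the 93 to 99 run it was -0.95. Leaving out coumarin animal 2-76 also ended the Npr1 call (adjusted p = 0.0528). Cdh5, Tie1 and Eng stood alike in these control runs, with Cdh5 means from 9.91 to 9.93, and passed against either part of the controls. Against the 93 to 99 run Flt1 was called as well (-0.43, limma adjusted p = 0.0285), which made 5 of 10, where 1604 of 14593 genes were called.

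In a fit on the coumarin and control arrays alone Cdh5 was called, and Tie1 (limma adjusted p = 0.0665), Eng (0.0882) and Npr1 (0.206) were not.

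The 6 other genes did not pass with coumarin. The receptors Flt1 (-0.31 ± 0.12, limma adjusted p = 0.133) and Kdr (-0.24 ± 0.11, adjusted p = 0.266) and the junction protein Pecam1 (-0.20 ± 0.093, adjusted p = 0.259) had unadjusted p-values under 0.05. Dll4 was at -0.27 ± 0.14 and Tek at -0.18 ± 0.13. Emcn was at -0.037 ± 0.20, with an interval from -0.44 to 0.36.

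**Figure D2:**
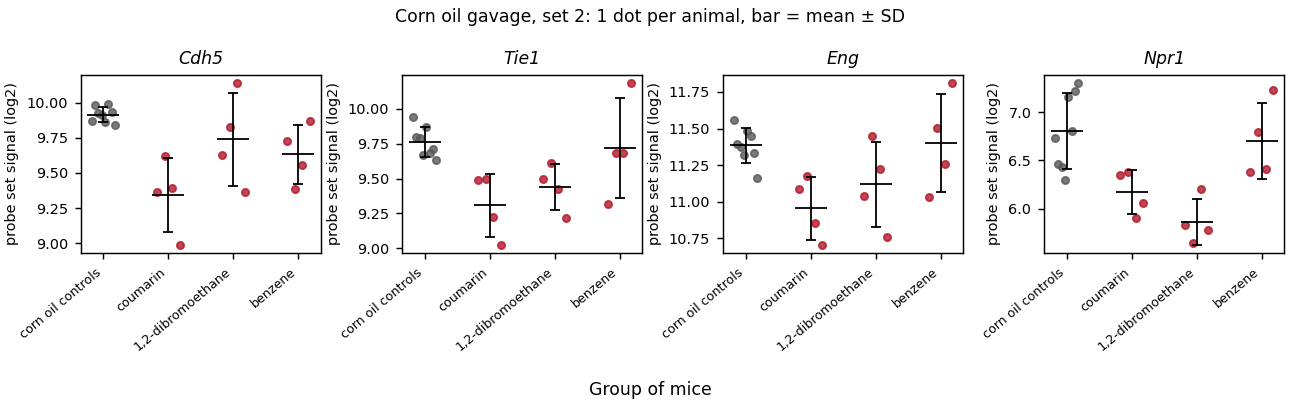
Log2 probe set signal of Cdh5, Tie1, Eng and Npr1 (y axes, which do not start at 0) in the 8 corn oil controls of set 2 and in 4 mice each with coumarin, 1,2-dibromoethane and benzene (x axis); each dot is an animal, and bars give the mean and SD. Cdh5 in controls spans only 9.84 to 9.99 and all 4 coumarin animals lie under it, while Npr1 in controls spans 6.29 to 7.31.

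1,2-Dibromoethane, given in the same vehicle, lowered Npr1 most of all: the 4 mice were at 5.64, 5.78, 5.83 and 6.20, every one below the lowest control at 6.29. The change was -0.94 ± 0.15 (limma adjusted p = 0.00015), or 52.2% of the control signal. Npr1 was the only one of the 10 genes called, where 2.09% of all genes were called lower and 4.03% in either direction. The call held against the controls numbered 93 to 99 (-1.26, adjusted p = 7e-07) and against the others (-0.62, adjusted p = 0.0128). Without animal 2-56, whose 3' to 5' difference was high, the change was -1.05 (adjusted p = 0.000102). In a fit on the arrays of the 2 groups alone Npr1 was not called (adjusted p = 0.106).

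Of the 10 genes 9 lay below 0 with 1,2-dibromoethane (median -0.18, against -0.0049 over all genes). Tie1, at 9.22, 9.43, 9.50 and 9.61, lay wholly under the controls (9.63 to 9.95) but missed the call at -0.33 ± 0.11 (limma adjusted p = 0.0825). Tie1 and Npr1 were the 2 genes with such a separation, as were 0.637% of all genes. Dll4, which signals to Notch in neighbouring cells, was at -0.40 ± 0.14 (adjusted p = 0.101). Eng was at -0.27 ± 0.12 (adjusted p = 0.193), and Kdr was at 0.14 ± 0.11, the one value above 0.

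Cdh5 gave an answer that depended on the probe set. By its brighter probe set it stood at 9.36, 9.63, 9.83 and 10.14 with 1,2-dibromoethane, with animal 2-56 the highest and above every control, and the change was -0.18 ± 0.11 (limma adjusted p = 0.399). By the dimmer probe set it was lower by -1.13 ± 0.23 (adjusted p = 0.00368 over all probe sets). The mean of both was called (-0.65, adjusted p = 0.00264). Without animal 2-56 the brighter probe set gave -0.31 and was not called (adjusted p = 0.132).

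Benzene, the third chemical in corn oil, left all 10 genes without a call by limma, where 0.0891% of all genes were called. Emcn and Cdh5 had unadjusted p-values under 0.05. Emcn, the capillary sialomucin, was at 6.99, 8.52, 8.74 and 9.25 with benzene against 8.52 to 9.53 in controls (median 9.03), a difference of -0.67 ± 0.20 (adjusted p = 0.415). The value of 6.99 came from animal 2-90 and was the lowest Emcn signal in the 70 arrays. The same animal had the highest Tie1 (10.19), Eng (11.81), Dll4 (9.21) and Npr1 (7.22) of the benzene group. The Emcn controls were uneven, averaging 9.52 in animals 59 and 60, 8.95 in 93 to 99 and 8.77 in 132 and 134. Against the 93 to 99 run the Emcn change with benzene was -0.58 (limma adjusted p = 0.553). Against the other controls it was -0.77 and was called (adjusted p = 0.0333), where 1220 of 14593 genes were called. Cdh5 with benzene was at -0.28 ± 0.11 (adjusted p = 0.489), and became a call at -0.36 with array weights (adjusted p = 0.0479). That weighted fit called 212 of 14593 genes with benzene, against 13 in the main fit.

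The contrasts between treated groups in corn oil show where coumarin, 1,2-dibromoethane and benzene differed, with the doses of 200, 62 and 100 mg/kg unlike one another. Against benzene, coumarin was lower in Tie1 (-0.41 ± 0.13, limma adjusted p = 0.0478) and Eng (-0.45 ± 0.14, adjusted p = 0.0426), where 2.28% of all genes were lower and 4.84% were called. Against benzene, 1,2-dibromoethane was lower in Npr1 (-0.84 ± 0.18, adjusted p = 0.00359), where 6.92% of all genes were lower and 9.33% were called. Between coumarin and 1,2-dibromoethane none of the 10 genes was called (1.54% of all genes were, and Cdh5 and Kdr of the 10 had an unadjusted p under 0.05). Cdh5 was lower with coumarin than with 1,2-dibromoethane by -0.40, with an interval from -0.66 to -0.13 (adjusted p = 0.0955). Npr1 averaged 6.17 with coumarin and 5.86 with 1,2-dibromoethane, a difference of 0.31 with an interval from -0.046 to 0.67 that spans 0.

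N-methylolacrylamide in water raised other genes of the 10. Emcn was at 9.14, 9.26, 9.40 and 9.46 with the chemical against 8.33, 8.46, 8.58 and 8.68 in the 4 water controls. The rise was 0.81 ± 0.23 (limma adjusted p = 0.0136), or 175% of the control signal. Tek, the angiopoietin receptor, was at 10.46, 10.53, 10.71 and 10.74 against 9.81, 10.07, 10.13 and 10.48, an overlap of a single control. Tek rose by 0.49 ± 0.15 (adjusted p = 0.018). These 2 of 10 stand where 10.7% of all genes were called higher, and 17.9% were called in either direction.

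The other 8 genes did not pass with N-methylolacrylamide. Dll4 (-0.43 ± 0.17, limma adjusted p = 0.0594) and Eng (-0.33 ± 0.14, adjusted p = 0.0798) had unadjusted p-values under 0.05 on the low side. Eng was at 11.15 to 11.45 against 11.46 to 11.84. The median of the 10 genes was -0.13 and that of all genes -0.084. Flt1 was at 0.10 ± 0.14 by its brightest probe set, while another of its 4 probe sets was higher by 0.65 (adjusted p = 0.0163 over all probe sets). The dimmer Eng probe set was lower (-0.47 ± 0.15, adjusted p = 0.03 over all probe sets), and the mean of both Eng probe sets was called (-0.40, adjusted p = 0.0297).

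Both calls depended on single animals, control and treated. Without water control 2-124 neither Emcn (0.74, limma adjusted p = 0.0763) nor Tek (0.39, adjusted p = 0.131) was called, and 299 genes in all were called in place of 2605. The same loss followed from leaving out treated animal 2-102 (Emcn adjusted p = 0.0548, Tek adjusted p = 0.0708), and Tek was lost without treated animal 2-106 (adjusted p = 0.0625). Fitted on the arrays of the 2 groups alone, Tek was not called either (adjusted p = 0.0545). Emcn in the water controls (8.51 ± 0.15, SD, n = 4) was below feed controls of the same set (9.20 ± 0.17, SD, n = 4). The Emcn mean with N-methylolacrylamide was 9.32, near the feed controls. Tek averaged 10.12 in water, 10.45 in feed and 10.53 in corn oil controls of set 2, and 10.61 with N-methylolacrylamide. Between water and feed controls Tek was not called (limma adjusted p = 0.0785).

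2-Chloromethylpyridine hydrochloride, given in the same water at 250 mg/kg, changed 0 genes by limma (1710 had an unadjusted p under 0.05). Tek was at 0.54 ± 0.15 (adjusted p = 0.351), Kdr at 0.39 ± 0.13 (adjusted p = 0.351) and Emcn at 0.42 ± 0.23 (adjusted p = 0.458). Tek stood at 10.43, 10.60, 10.67 and 10.93, overlapping a single water control. Compared directly, N-methylolacrylamide and 2-chloromethylpyridine hydrochloride differed in 0 genes (1488 at an unadjusted p under 0.05, Dll4 alone among the 10), and both are set against the same 4 controls.

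**Figure D3:**
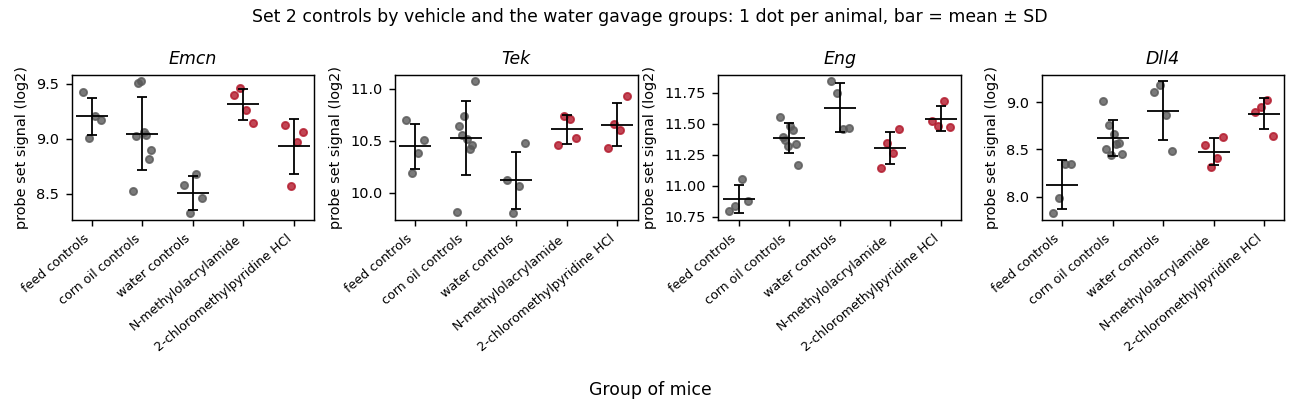
Log2 probe set signal of Emcn, Tek, Eng and Dll4 (y axes, which do not start at 0) in the feed, corn oil and water controls of set 2 and in the 2 groups given chemicals in water (x axis); each dot is an animal, and bars give the mean and SD. Water controls lie lowest for Emcn, at 8.33 to 8.68, lowest on average for Tek, at 10.12, and highest on average for Eng and Dll4.

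In feed, none of the 10 genes passed with any of the 7 chemicals. With 1,5-naphthalenediamine, 8 of 10 lay below 0 (median -0.25, all genes -0.023, 1.11% of all genes called). Tek was at 10.62 to 10.78 against 10.94 to 11.29 (-0.40 ± 0.17, limma adjusted p = 0.425), and Flt1 at 9.23 to 9.64 against 9.71 to 9.97 (-0.39 ± 0.16, adjusted p = 0.358). Cdh5 and Dll4 were also wholly below the controls, which makes 4 of 10 with 3 mice on each side, where 11.1% of all genes were so placed. With array weights Tek and Flt1 were called (adjusted p = 0.047 and 0.0173), in a fit that called 910 of 14593 genes against 162 in the main fit.

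N-(1-naphthyl)ethylenediamine dihydrochloride, a related naphthalene amine at the same 2000 ppm, gave a median of 0.12, where 0.00685% of all genes were called. Dll4 was at 8.54 to 8.82 against 8.25 to 8.31 in the feed controls (0.39 ± 0.19, limma adjusted p = 0.651). Set directly against it, 1,5-naphthalenediamine was lower in Dll4 by -0.70 ± 0.19 (adjusted p = 0.0374), with its 3 mice at 7.85 to 8.21. Dll4 was the 1 gene of 10 called there, where 0.178% of all genes were lower and 1.67% were called. Tie1 (-0.41, adjusted p = 0.198), Flt1 (-0.37, adjusted p = 0.33), Tek (-0.38, adjusted p = 0.386) and Cdh5 (-0.35, adjusted p = 0.344) were lower too without passing. For Eng the 2 chemicals stood at 0.026 and 0.30 from the shared controls.

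Of the other feed chemicals, malathion had Flt1 at 8.83 to 9.00 against 9.08 to 9.55, not called (-0.38 ± 0.14, limma adjusted p = 0.115), where 2.19% of all genes were called. With diazinon, 0.00685% of all genes were called, and the 10 genes ran from -0.35 (Emcn) to 0.25 (Dll4). Pentachloronitrobenzene, also at 0.00685%, kept them between -0.12 (Emcn) and 0.20 (Npr1). 2,2-Bis(bromomethyl)-1,3-propanediol and 4-nitroanthranilic acid changed 0 genes by limma (1568 and 272 at an unadjusted p under 0.05). With 2,2-bis(bromomethyl)-1,3-propanediol Emcn was at 8.76 to 8.94 against 9.01 to 9.43 (-0.32 ± 0.23, adjusted p = 0.609). With 4-nitroanthranilic acid Npr1 was at 5.65 to 5.85 against 5.95 to 6.19 (-0.28 ± 0.18, not called). Of the 13 pairs of chemicals compared directly, 3 called any of the 10 genes. None of the 10 was called between malathion and 4-nitroanthranilic acid (0.706% of all genes), malathion and diazinon (0.281%) or 1,5-naphthalenediamine and pentachloronitrobenzene (0.973%).

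2,3-Benzofuran, the corn oil chemical of set 1, called none of the 10 where 4.07% of all genes were called. Flt1 was at 9.00 to 9.62 against 9.70 to 10.00 (-0.46 ± 0.16, limma adjusted p = 0.0792), and Emcn was at 9.74 to 10.23 against 9.51 to 9.70 (0.44 ± 0.27, adjusted p = 0.432). The median of -0.19 rested on animal 1-10: without it the median was -0.022 and Flt1 was at -0.28 (adjusted p = 0.834). The 3' to 5' difference of that array stands among the facts given above.

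By the labels' tumour class, the median of the 10 genes was below 0 for 6 of 7 positive chemicals (-0.29 to 0.031) and for 1 of 6 negative ones (-0.079 to 0.12). Single differences lay below 0 in 54 of 70 cases for positive chemicals and in 23 of 60 for negative ones. This is a description, since chemicals shared control animals. The share of all genes below 0 itself ran from 38.4% with 2,3-benzofuran to 63.5% with N-methylolacrylamide. With N-methylolacrylamide the median was -0.129 against -0.0836 over all genes. Among the other positive chemicals, the benzene median was -0.046, and that of 2,3-benzofuran was -0.022 without animal 1-10. All 4 chemicals in corn oil were positive, so vehicle and class cannot be told apart there. In feed alone the count of medians below 0 was 1 of 2 for positive and 1 of 5 for negative chemicals.

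The control groups show how far the same genes differed with no chemical. In set 2, corn oil controls were higher than feed controls in Tie1 (9.76 against 9.24, 0.52 ± 0.11, limma adjusted p = 0.00415), Npr1 (0.76 ± 0.15, adjusted p = 0.00264), Eng (0.49 ± 0.12, adjusted p = 0.0114), Cdh5 (0.40 ± 0.11, adjusted p = 0.0361) and Dll4 (0.49 ± 0.14, adjusted p = 0.0382). These are 5 of 10 genes, where 1.67% of all genes were higher and 3.46% were called. All 4 genes that fell with coumarin are among them, and the shared corn oil controls enter both differences. With coumarin Cdh5 (9.34) lay below the feed controls (9.52) on average, and Tie1 (9.31), Eng (10.95) and Npr1 (6.17) lay slightly above them (9.24, 10.89 and 6.05), differences that were not tested.

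Water controls differed from feed controls in the same set in 33.7% of all genes. Eng (0.74 ± 0.14), Dll4 (0.78 ± 0.17), Tie1 (0.59 ± 0.13), Cdh5 (0.37 ± 0.13) and Pecam1 (0.29 ± 0.11) were higher, and Emcn was lower (-0.69 ± 0.23), with limma adjusted p-values from 0.000109 to 0.0316. Corn oil controls exceeded water controls in Tek, Emcn and Npr1, where 22.9% of all genes were called. In set 1, corn oil and feed controls differed in 0 genes by limma (266 at an unadjusted p under 0.05, none of the 10), with 3 mice in each. Whether the corn oil difference itself changed between the sets was not shown, with 0 genes called (743 at an unadjusted p under 0.05, among them Tie1, Eng, Dll4 and Cdh5, 4 of the 10). Tie1 came nearest of the 10 (0.71 ± 0.18, adjusted p = 0.475).

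Between the sets, feed controls of set 2 were lower than those of set 1 in Tek (-0.66 ± 0.16), Flt1 (-0.57 ± 0.15), Kdr (-0.36 ± 0.14) and Cdh5 (-0.35 ± 0.14), with limma adjusted p-values from 0.000855 to 0.041, where 41.5% of all genes were called. In corn oil, set 2 was lower in Tek, Flt1 and Emcn and higher in Tie1, Dll4, Eng and Npr1, where 55.5% of all genes were called. Each chemical was therefore compared with controls of its own set.

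Within groups, the 10 genes did not vary as a single block. After each group's mean was subtracted, Pearson's r over 70 arrays had a median of 0.25 over all pairs, from -0.51 to 0.80. Tie1 and Eng were the most alike (r = 0.80, Spearman's rho = 0.80, r = 0.65 in set 1 and 0.84 in set 2). Tie1 and Dll4 (0.60) and Cdh5 and Flt1 (0.58) followed, and Kdr and Tek, receptors of different ligands, reached 0.50. These values describe shared variation on the same arrays and carry no test.

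Emcn ran against most of the others. Its r was -0.51 with Eng and with Npr1, -0.46 with Tie1 and -0.44 with Dll4, and it was above 0 only with Tek (0.18) and Kdr (0.040). Without benzene animal 2-90 the value for Emcn and Eng was -0.44. Spearman's rho for that pair was -0.39. Against the mean of the other 9, r was -0.51 for Emcn, 0.64 for Eng, 0.54 for Tie1 and Flt1, and 0.12 for Tek.

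**Figure D4:**
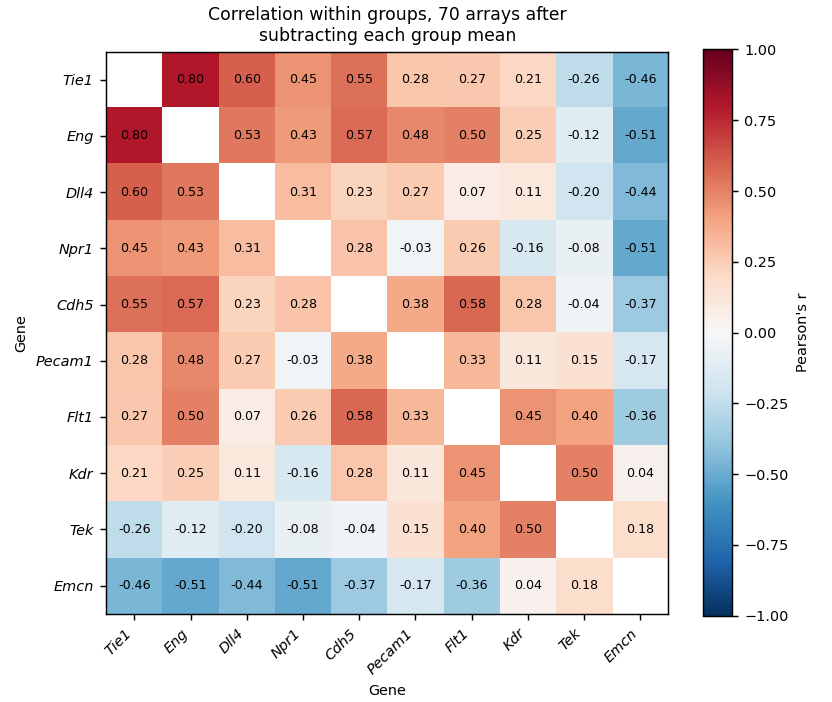
Pearson's r between each pair of the 10 genes over 70 arrays after subtraction of each group's mean (both axes list the genes). Tie1 and Eng share the highest value, 0.80, and the Emcn row is negative against 7 of the other 9 genes.

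The genes outside the set that varied most like the mean of the 10, by the same measure, were Pdzd2 (r = 0.74), Scube2 (0.73), Specc1l (0.73), Prelp (0.70), Ece1 (0.70), Notch1 (0.70), Shank3 (0.69), Prrc2b (0.68), Mapt (0.68) and Hmbox1 (0.68). The median of r over all genes was -0.039. Ece1 encodes the enzyme that makes endothelin, and Notch1 the receptor that Dll4 engages.

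Lists of other genes, averaged within each array, were compared with the 10 in the same way. The other pan-endothelial markers had the highest r with the mean of the 10 (0.71), and general capillary markers reached 0.61. Ciliated cell markers stood at -0.46 and pericyte and smooth muscle markers at 0.012. The 3' to 5' difference had an r of 0.040 with the mean of the 10 genes.

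With coumarin, the other pan-endothelial markers were lower in 3 of 29 cases, where 1.18% of all genes were called lower. Of the 29, 26 lay below 0 (median -0.23, all genes -0.0057). Icam2, an adhesion molecule of endothelium (-0.35 ± 0.076, limma adjusted p = 0.00221), S1pr1, the sphingosine-1-phosphate receptor (-0.62 ± 0.15, adjusted p = 0.00689), and Cldn5, the tight-junction claudin (-0.38 ± 0.11, adjusted p = 0.0257), were the 3. Icam2 is the one of them whose coumarin and control mice did not overlap, and S1pr1 and Cldn5 were named after their values were seen. Without coumarin animal 2-80 the count was 2, and without 2-76 it was 1.

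By vessel type, coumarin lowered Car4 (-0.35 ± 0.10) and Apln (-0.58 ± 0.13) of 7 aerocyte capillary markers, which mark the large gas-exchange capillary cell. It also lowered Ephb4 (-0.57 ± 0.15) of 8 venous markers, where 1.18% of all genes were called lower. The 8 general capillary markers gave no call and all lay below 0 (median -0.26). Of 19 endothelial transcription factors 3 were lower, Tal1 (-0.47 ± 0.12), Gata2 (-0.41 ± 0.12) and Mef2c (-0.58 ± 0.17), and 18 lay below 0. Adjusted p-values of these genes by limma ran from 0.00244 to 0.0424. Without coumarin animal 2-80 the count was 1 of the aerocyte markers, 1 of the venous markers and 1 of the transcription factors. Without 2-76 it was 1, 2 and 2. Of 8 arterial markers 0 were called with coumarin (median -0.16). Of 6 lymphatic endothelial markers 1 was higher and 0 were lower (median -0.26), and none was higher without coumarin animal 2-80 or 2-76.

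Along the pathways of the 10 genes, coumarin lowered 3 of 15 tested Notch genes: the receptor Notch4 (-0.45 ± 0.12), the target Heyl (-0.63 ± 0.16) and Lfng (-0.42 ± 0.12), which modifies Notch receptors. Of 18 endoglin, ALK1 and BMP pathway genes, Tgfb1 (-0.61 ± 0.14) and the inhibitory Smad7 (-0.47 ± 0.11) were lower. These counts stand where 1.18% of all genes were called lower. Of 10 other VEGF ligands and receptors none was called by limma, and Vegfa is among them. Of 9 angiopoietin and TIE pathway genes only Svep1 was lower (-0.39 ± 0.12, adjusted p = 0.045), and the count there was 0 without coumarin animal 2-80 or with no filter on dim probe sets. The Notch count was 1 without animal 2-80 and 2 without 2-76, and that of the endoglin, ALK1 and BMP pathway was 2 in both cases. None of 10 natriuretic peptide and cGMP genes beside Npr1 was called, and of 12 hypoxia targets none was (median -0.0011).

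With 1,2-dibromoethane, 7 of 29 other pan-endothelial markers were lower (median -0.22), where 2.09% of all genes were called lower. Tmem100 (-0.38 ± 0.086, limma adjusted p = 0.00612), a target of BMP9 signalling, Thbd, thrombomodulin (-0.42 ± 0.098, adjusted p = 0.00926), and Ace, angiotensin-converting enzyme (-0.43 ± 0.13, adjusted p = 0.042), were apart from controls, and Icam2, S1pr1, Rasip1 and Acvrl1, the receptor ALK1 (-0.45 ± 0.12), made up the rest. Without animal 2-56 the count was 3. Of 7 aerocyte markers 4 were lower, Car4 (-0.47 ± 0.10), Apln, Fibin and Tbx2, and 3 without that animal. In the endoglin and ALK1 pathway Acvrl1, Tgfb1, Smad6 and Smad7 were lower (4 of 18, and 1 without animal 2-56). Npr2, the receptor for C-type natriuretic peptide, was lower at -0.38 ± 0.09 (adjusted p = 0.00956), the only one of 10 natriuretic peptide and cGMP genes.

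With N-methylolacrylamide, 6 of 29 other pan-endothelial markers were higher, where 10.7% of all genes were, and their median was -0.14. The 6 were Cyyr1 (1.24), Calcrl (0.94), Erg (0.77), Ptprb (0.73), Adgrl4 (0.68) and Palmd (0.41). Ptprb is the phosphatase that acts on Tek, and Angpt1, the ligand of Tek, was higher too (1.37 ± 0.34, limma adjusted p = 0.00524), which makes 2 of 9 in the angiopoietin and TIE pathway with 0 lower (median -0.12). Gucy1a1 (0.76 ± 0.18), Gucy1b1, Prkg1 and Pde5a were higher and Pde2a was lower, of 10 natriuretic peptide and cGMP genes. Of 10 other VEGF ligands and receptors the co-receptor Nrp1 was higher (1.13 ± 0.19), and the ligand Pgf (-0.45) and the signalling enzyme Plcg1 (-0.33) were lower. Of 18 endoglin, ALK1 and BMP genes the receptors Bmpr2 (1.14 ± 0.25) and Tgfbr1 (0.58) were higher and 0 were lower, with a median of -0.071. Of 15 Notch genes the protease Adam10 was higher (1.18) and the target Heyl lower (-0.63). Of 12 hypoxia targets 1 was higher and 2 were lower. Without water control 2-124 limma called 0 of the 29 pan-endothelial markers, 0 of the angiopoietin and TIE genes, 1 higher of the cGMP genes, 1 higher and 1 lower of the VEGF genes, 1 higher of the ALK1 and BMP genes, 1 higher of the Notch genes and 0 of the hypoxia targets.

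Markers of other lung cells moved beside the endothelial genes. Over all genes, 4.09% were called with coumarin (1.18% lower) and 4.03% with 1,2-dibromoethane (2.09% lower). Ciliated cell markers were higher in 6 of 12 cases with coumarin (median 0.50) and in 7 of 12 with 1,2-dibromoethane (median 0.49), where Dynlrb2 rose by 0.71 ± 0.14 and 0.73 ± 0.14. Their mean level per animal ran from 8.46 to 8.87 with coumarin and from 8.48 to 8.91 with 1,2-dibromoethane, against 7.88 to 8.58 in the corn oil controls. With coumarin 3 of 11 club and secretory markers were also higher and 2 of 13 fibroblast and matrix markers lower, while 0 of 12 alveolar type I markers were called (median 0.00017) and 0 of 11 type II markers. With 1,2-dibromoethane 4 of 11 type II markers and 3 of 13 matrix markers were lower. The medians there were -0.199 for type II, -0.155 for type I and -0.191 for pericyte and smooth muscle markers, against -0.182 for the 10 genes. T and NK cell markers were lower in 5 of 11 cases with coumarin. Without coumarin animal 2-80 or 2-76 the ciliated count was 6 and 5, the fibroblast and matrix count 1 and 3, the club and secretory count 2 in both cases, and the T and NK cell count 5 and 2. Of 13 pericyte and smooth muscle markers 12 lay below 0 with coumarin (median -0.36, 1 called), with a mean level per animal of 7.99 to 8.13 against 8.05 to 8.72. The part of these cell types in the endothelial values was not tested.

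**Figure D5:**
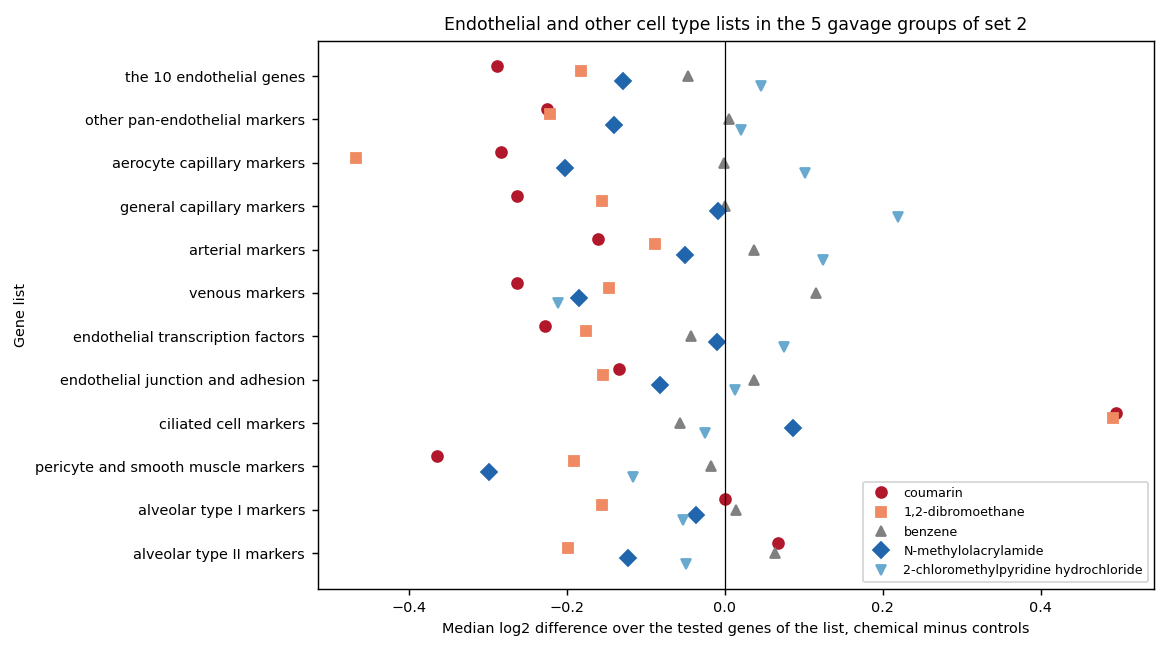
Median log2 difference from controls over the tested genes of each list (x axis) for 12 lists (y axis) and the 5 gavage groups of set 2, 1 symbol per chemical. With coumarin and 1,2-dibromoethane all 8 endothelial lists, some of which share genes, lie below 0, from -0.088 to -0.47. Other lists do so too: with 1,2-dibromoethane alveolar type I (-0.155), type II (-0.199) and pericyte and smooth muscle markers (-0.191). With coumarin the pericyte and smooth muscle markers lie at -0.364. Ciliated markers lie near 0.49 with both chemicals, and benzene lies near 0 in most lists.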

How the data were processed

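One array was run per right lung lobe. From their range (2.47 to 14.5) the deposited values are log2 signals of probe sets; the authors' summarisation and normalisation are not stated in the labels. Probe sets were named through the platform annotation: of 45101, 34945 had 1 symbol, 932 several and 9160 none. By Entrez identifier 18032 symbols were taken from the RefSeq gene table, whether or not they differed from the annotation. Genes with a mean above the 30th percentile were tested. The main model was limma 3.58.1 in R 4.3.3 (lmFit and eBayes, one mean per group, all 70 arrays sharing the spread), with Benjamini-Hochberg adjustment within each comparison and a call at an adjusted p under 0.05. Each chemical was compared with the controls of its vehicle and set. Each difference carries its limma standard error or 95% interval. The 10 genes and the gene lists were chosen with earlier results of these data known. Genes of the lists are named where treated and control values did not overlap and the call was made, and otherwise after their values were seen. The scripts were tested on simulated data, in which 77.6% of 1.5-fold changes were recovered for coumarin and 70.1% for N-methylolacrylamide among 14593 genes. Of 1.25-fold changes 16.4% and 11.9% were recovered, and 3.82% and 6.5% of calls were false. The simulated noise was independent between genes and had the same spread per gene in every group, which real arrays need not have. Labels name separate animals, so p-values measure the spread between animals.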

Additional observations from a re-analysis of the deposited data

Results flagged for a closer look

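In 3 of the 120 combinations of a gene and a group of 4 to 10 animals, 1 animal stood far from the rest, a gap that chance gives in about 1 of 20. Emcn in 2,2-bis(bromomethyl)-1,3-propanediol animal 2-4 was 8.755, with the other 3 between 8.914 and 8.943. Emcn in malathion animal 2-39 was 9.134, with the others between 8.76 and 8.823. Npr1 in water control animal 2-129 was 5.842, with the others between 6.211 and 6.254.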

How the results depend on the processing

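The counts below are of the 10 genes called. Leaving out each animal in turn gave 2 to 4 with coumarin, 0 to 4 with N-methylolacrylamide, 0 to 1 with 2,3-benzofuran and 0 to 1 with benzene, against 4, 2, 0 and 0. The 0 of N-methylolacrylamide followed from leaving out water control 2-124 or treated animal 2-102, its 4 from leaving out water control 2-129, and the 1 of benzene (Emcn) from leaving out animal 2-82. With only the arrays of the 2 groups compared, the count was 1 with coumarin, 0 with 1,2-dibromoethane and 1 with N-methylolacrylamide. Of 14593 genes, 146, 10 and 1338 were called there. With array weights it was 2 with 1,5-naphthalenediamine, 1 with 2,3-benzofuran and 1 with benzene, where 910, 1325 and 212 of 14593 genes were called. It was 4 with N-methylolacrylamide, 1 with 2-chloromethylpyridine hydrochloride, 2 with 2,2-bis(bromomethyl)-1,3-propanediol and 1 with malathion. There 5970, 314, 2958 and 2371 of all genes were called, against 2605, 0, 0 and 320 in the main fit. The mean over all probe sets gave 2 with 1,2-dibromoethane (541 genes called in all) and 3 with N-methylolacrylamide (1 of them lower, Eng, and 2493 genes in all). The filter at the 50th percentile also gave 3 with N-methylolacrylamide (1 lower, Dll4, and 2864 genes in all). In splits of the corn oil controls chosen after seeing the data, numbers 93 to 99 gave 5 with coumarin (1604 of 14593 genes called). The others gave 3 with coumarin (747 genes) and 1 with benzene (1220 genes, against 13 in the main fit). The cause was not tested. Cdh5 with coumarin was called in all 12 fits that left out an animal and in all 10 other alternatives, and Npr1 with 1,2-dibromoethane in 12 of 12 and 9 of 10. Of 123 changes not called, 13 were called in at least 1 alternative, and none of the directions of a called change reversed. No paired analysis was possible because animal numbers are unique to each animal.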
